A study of Mus musculus with 8 samples.

Results

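Tatdn3, Flvcr1, Lyplal1 and Bpnt1, 4 genes near Kcnh1 on mouse chromosome 1, had read differently in the hippocampus of Kv10.1 knockout and wildtype mice, and they are described here beside 6 paralogues, members of the same gene families that lie elsewhere. The paralogues are Tatdn1 and Tatdn2 for Tatdn3, Flvcr2 for Flvcr1, Lypla1 and Lypla2 for Lyplal1, and Impad1 for Bpnt1. All 10 genes were found among the 20985 probe sets of the array, each with 1 probe set, 9 by the platform's symbol and Impad1 through its current name Bpnt2. The question put to them was whether the paralogues shifted in the direction opposite to their chromosome 1 relatives. The 4 neighbours were chosen because of this same genotype difference, so their differences are given as a description with no test, whereas the paralogues were chosen by family.

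Hippocampal RNA came from males of 8 weeks of age, 4 Kv10.1 -/- knockouts and 4 Kv10.1 +/+ wildtype animals with no treatment, 1 mouse per array. Kcnh1 encodes Kv10.1, also called Eag1, a voltage-gated potassium channel of neurons. The sources used here do not give the strain background or the design of the knockout allele. Values are deposited log2 expression levels, and every difference is knockout minus wildtype on that log2 scale.

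The families have little in common beyond the place of 1 member near Kcnh1. TatD proteins are metal-dependent deoxyribonucleases conserved from bacteria to mammals, and the yeast member takes part in the breakdown of DNA during cell death. FLVCR proteins are membrane transporters first described as carriers of heme and later of choline, and FLVCR2 is a protein of brain vessel endothelium whose loss in humans causes a disorder of brain vessels. LYPLA1 and LYPLA2 are the acyl-protein thioesterases that take palmitate off proteins, a lipid tag that holds many synaptic proteins at membranes, and LYPLAL1 is a relative with less certain substrates. BPNT1 in the cytosol and IMPAD1 in the Golgi are lithium-inhibited phosphatases that dispose of phosphoadenosine phosphate, the by-product of sulfation.

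Kcnh1 itself separated the genotypes. It read 8.36, 8.31, 8.43 and 8.29 in knockouts 1 to 4 and 9.52, 9.35, 9.22 and 9.27 in wildtypes 1 to 4, a difference of -0.99 ± 0.081 (SE; limma adjusted p = 0.00319). It was the single gene past an adjusted p of 0.05, which is 0.00477% of all probe sets. Of the markers of hippocampal neurons, 11 of 11 lay above the median probe set, as did 9 of 10 measured markers of glia and vessels, 4 of 6 of thalamus and habenula and 3 of 7 of choroid plexus. The mean centred level of the choroid plexus markers ran from -0.28 to 0.02 in knockouts and from -0.18 to 0.80 in wildtypes. Ttr had the largest difference of these markers, -1.05, and the others ran from -0.35 for Kl to 0.04 for Folr1. The arrays of wildtype 1 and knockout 1 stood apart on the first principal component, with scores of -32.0 and -14.9 against -0.81 to 15.9 in the other 6. Knockout 1 was less clearly apart, as knockout 4 had a score of similar size with the other sign, 15.9. Mouse numbers in the labels form a lower series, with wildtypes 1 to 3 and knockout 1, and a higher series, with wildtype 4 and knockouts 2 to 4, so series and genotype are largely confounded.

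Promoter sequence is shown for the 4 genes of the 10 whose 250 bases before the RefSeq start lie outside every protein-coding gene of the RefSeq table, to set the start region of a neighbour beside that of its relative. Of the 10 genes 7 had an entry in the promoter table, and 3 of these had windows that overlapped a coding gene or an alternative start of their own. The FLVCR pair is complete, Lyplal1 stands for the chromosome 1 genes and Tatdn2 for the paralogues. Sequences are from RefSeq, build GRCm38.p6, written 5′ to 3′ along the gene's own strand, at chr1:191026191-191026440 (minus strand) for Flvcr1, chr12:85746289-85746538 (plus strand) for Flvcr2, chr1:186117311-186117560 (minus strand) for Lyplal1 and chr6:113696800-113697049 (plus strand) for Tatdn2. Capitals mark GGGCGG, the Sp1-type GC box, and CCAAT on either strand, and TATAAA was searched in the same way.
Flvcr1: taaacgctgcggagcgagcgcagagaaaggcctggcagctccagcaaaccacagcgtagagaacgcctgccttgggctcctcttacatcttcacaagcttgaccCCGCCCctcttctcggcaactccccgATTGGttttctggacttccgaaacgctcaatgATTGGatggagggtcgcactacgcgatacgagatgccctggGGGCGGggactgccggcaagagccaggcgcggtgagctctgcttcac
Flvcr2: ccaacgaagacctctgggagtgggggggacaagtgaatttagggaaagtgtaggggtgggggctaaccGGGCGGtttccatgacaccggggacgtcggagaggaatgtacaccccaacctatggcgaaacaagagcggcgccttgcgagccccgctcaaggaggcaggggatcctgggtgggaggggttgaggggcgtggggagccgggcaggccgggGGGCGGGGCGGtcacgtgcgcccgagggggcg
Lyplal1: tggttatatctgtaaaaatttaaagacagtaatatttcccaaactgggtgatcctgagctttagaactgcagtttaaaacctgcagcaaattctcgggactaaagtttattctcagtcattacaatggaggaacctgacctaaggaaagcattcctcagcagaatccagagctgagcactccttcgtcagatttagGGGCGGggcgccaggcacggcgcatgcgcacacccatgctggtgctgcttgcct
Tatdn2: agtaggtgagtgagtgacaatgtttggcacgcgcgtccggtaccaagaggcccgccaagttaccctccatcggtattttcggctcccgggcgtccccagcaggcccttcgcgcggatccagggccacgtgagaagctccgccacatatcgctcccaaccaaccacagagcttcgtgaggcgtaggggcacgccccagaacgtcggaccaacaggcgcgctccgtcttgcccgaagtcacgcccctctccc

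The FLVCR promoters were both rich in G and C (60.4% for Flvcr1 and 68.0% for Flvcr2) but differed in their motifs. Flvcr1 held 2 GC boxes and 2 CCAAT boxes, while Flvcr2 held 3 GC boxes, of which 2 overlap, and no CCAAT. The Lyplal1 window held 1 GC box close to the start, at 47.2% G and C and 7 CpG pairs, against 25 CpG pairs in Tatdn2, which held none of the motifs. Among 32817 windows of the same length in the table, 32.7% held a GC box, 33.8% a CCAAT box and 12.4% TATAAA, so these matches are common letters and no more than a description. The Flvcr1 window also lies within the span of the long noncoding RNA gene A230020J21Rik.

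None of the 6 paralogues passed the test in either direction (limma adjusted p = 0.997 for each), and none was at an unadjusted p under 0.05, where 3.16% of all probe sets were. Of all probe sets only that of Kcnh1 passed the adjusted threshold. A failure to pass it therefore does not show that a paralogue was unchanged. The groups of the paralogues overlapped in 6 of 6 cases, and 2.16% of all probe sets had groups that did not overlap. Signs were opposite to those of the chromosome 1 relative in 5 of 6 pairs, yet the sizes were small, from -0.16 for Lypla2 to 0.10 for Tatdn1. Over all probe sets the median absolute difference was 0.065 and the median standard error 0.0922, so a sign alone says little about any 1 of these genes. A shift as large as that of the relative, with the sign turned, lay outside the 95% interval in 6 of 6 pairs. That count takes the neighbours' values as fixed, although they carry error and were picked for their size. With the neighbours' own 95% intervals turned in sign, the intervals of relative and paralogue overlapped in 3 of 6 pairs, those of Flvcr2, Lypla2 and Impad1, so the count sets a scale and is no test.

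**Figure D1:**
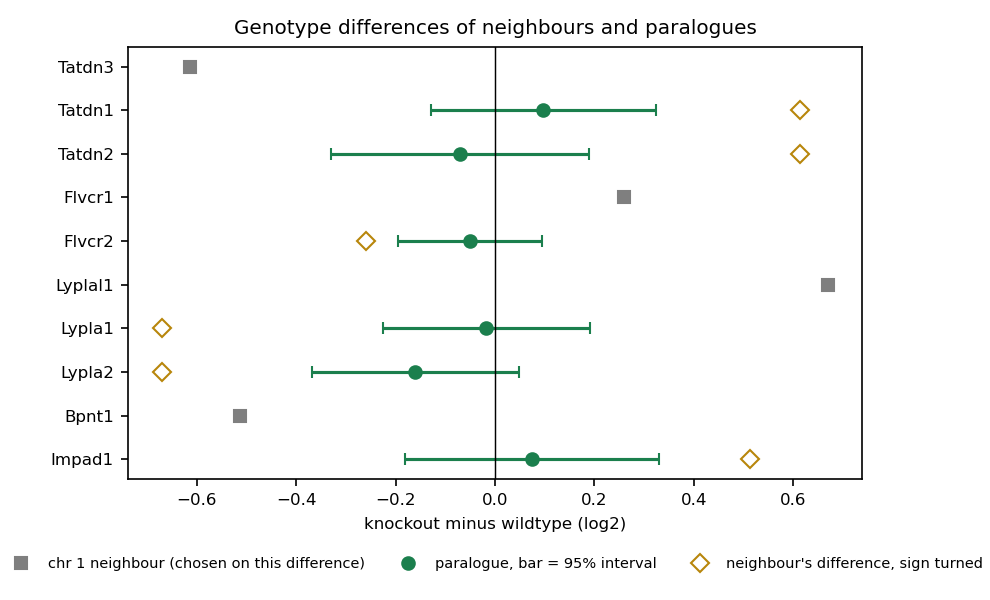
Knockout minus wildtype on the log2 scale for the 4 chromosome 1 neighbours (squares, no interval because they were chosen on this difference) and the 6 paralogues (circles with 95% intervals from limma), with the neighbour's difference at turned sign as a diamond. The paralogue intervals all span 0 and none reaches its diamond, where the diamonds take the neighbours' values as fixed.

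Tatdn3, the TatD gene near Kcnh1, read lower in every knockout. Knockouts 1 to 4 were at 7.77, 7.87, 7.74 and 7.65 and wildtypes 1 to 4 at 8.51, 8.34, 8.36 and 8.27. The groups lay 0.40 apart at their nearest values, and the difference of -0.61 ± 0.078 (SE) is a 1.53-fold lower level. It was -0.63 within the lower series of mouse numbers, from 1 knockout, and -0.52 within the higher, from 1 wildtype.

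Tatdn1, a TatD nuclease gene on chromosome 15, read 7.70, 7.80, 7.66 and 7.97 in the knockouts and 7.57, 7.88, 7.77 and 7.52 in the wildtypes. The highest knockout and the lowest wildtype set the mean difference of 0.10 ± 0.102 (SE), with 3 of 4 knockouts above the wildtype mean and wide overlap. It was 0.04 without knockout 4 and 0.04 without wildtype 4, and it was -0.04 within the lower series of mouse numbers and 0.29 within the higher. The interval ran from -0.13 to 0.32, which leaves out 0.61, the size of the Tatdn3 difference, on which Tatdn3 was chosen.

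Tatdn2, on chromosome 6, is the paralogue whose sign was the same as that of its relative. Its knockout levels were 8.00, 7.80, 7.68 and 7.78 and its wildtype levels 8.22, 7.85, 7.73 and 7.74, a difference of -0.07 ± 0.117 (SE; 95% interval -0.33 to 0.19). Wildtype 1 was the highest wildtype and knockout 1 the highest knockout, the same arrays that stand apart on the first component. Without wildtype 1 the difference was 0.04, and it was also 0.04 in the fit with a block for mouse-number series.

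Flvcr1, the transporter gene near Kcnh1, read higher in every knockout. The knockout levels were 8.61, 8.63, 8.53 and 8.55 and the wildtype levels 8.42, 8.30, 8.34 and 8.22. No value overlapped, and the difference of 0.26 ± 0.070 (SE) is a level 19.7% higher. It was 0.26 within the lower series of mouse numbers and 0.35 within the higher.

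Flvcr2, its relative on chromosome 12, had the narrowest range of the 10 genes, 0.16 over all arrays. It read 6.67, 6.82, 6.77 and 6.71 in the knockouts and 6.83, 6.77, 6.80 and 6.77 in the wildtypes, a difference of -0.05 ± 0.065 (SE; 95% interval -0.19 to 0.09). Knockout 1 was the lowest array, and the difference was -0.03 without it. Within the lower series of mouse numbers it was -0.13 and within the higher -0.0033. Flvcr2 was also the dimmest of the 10, with 30.3% of probe sets at a lower mean, and whether its level lay above background was not analysed here.

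**Figure D2:**
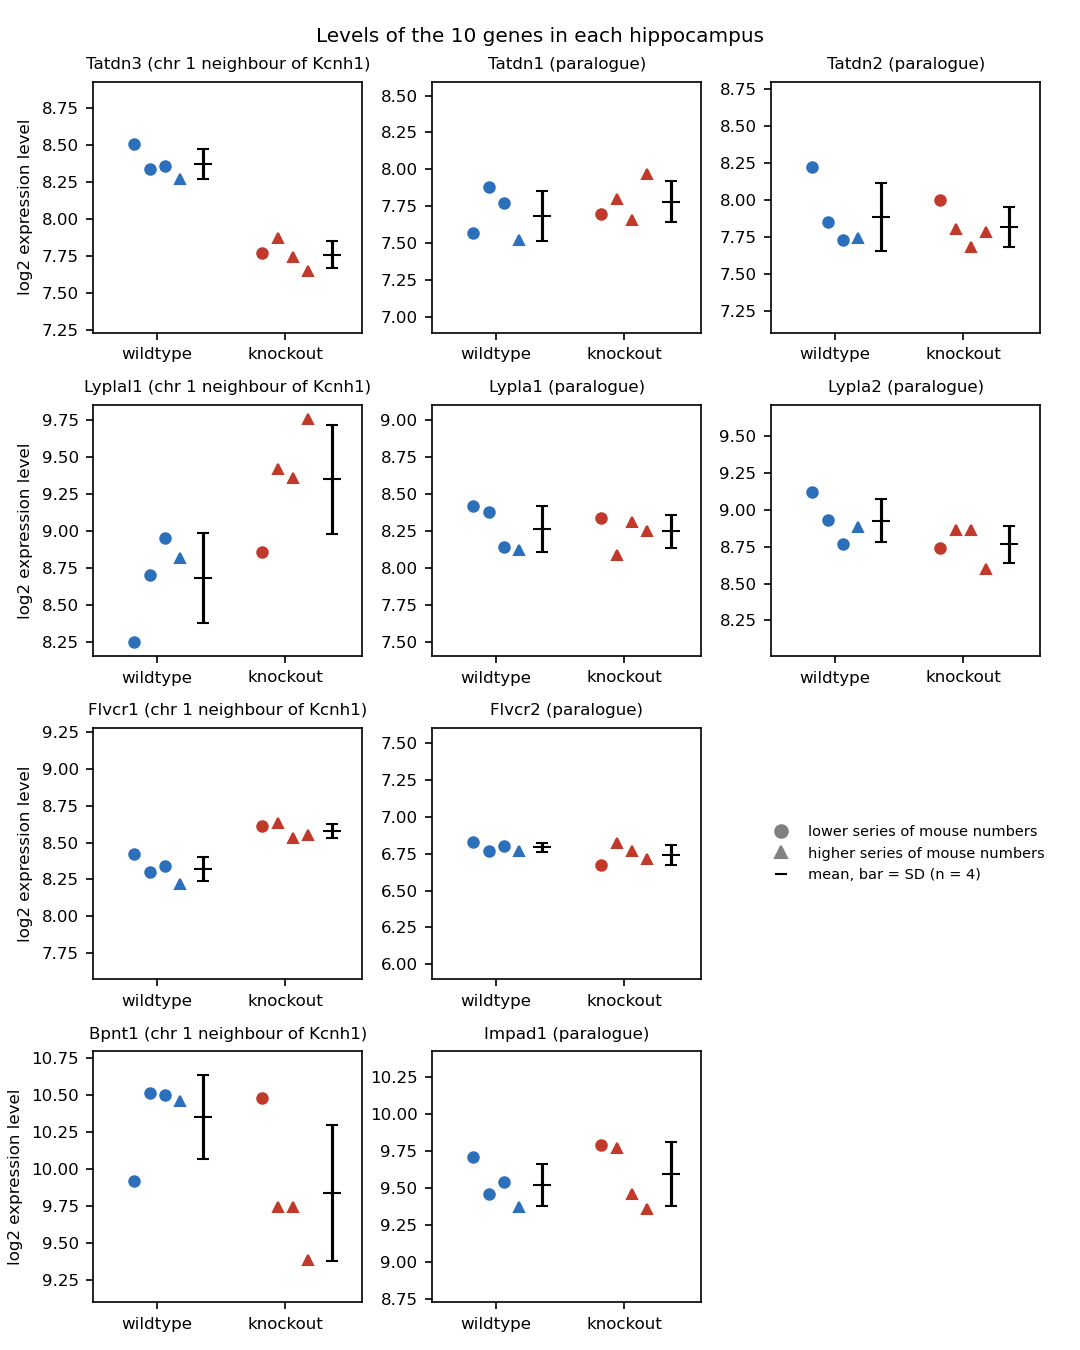
Log2 expression level of each of the 10 genes in every mouse, wildtype in blue and knockout in red, with the mean and SD (n = 4) beside each group and marker shapes for the lower and higher series of mouse numbers. Every panel spans the same height, and only Tatdn3 and Flvcr1 show groups that do not overlap.

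Lyplal1 had the largest mean difference among the 10 genes and the widest range, 1.51. Knockouts 1 to 4 read 8.86, 9.42, 9.36 and 9.76, and wildtypes 1 to 4 read 8.25, 8.70, 8.95 and 8.82. Knockout 1 lay below wildtype 3, so the groups overlapped, while knockouts 2 to 4 were all above the wildtypes. The difference was 0.67 ± 0.191 (SE), 1.59-fold, or 0.23 within the lower series of mouse numbers, 0.69 within the higher and 0.46 with a block for that series. The lowest array of each genotype, wildtype 1 and knockout 1, is the one that stands apart on the first component. Without both, in a fit added after the data were seen, the difference was 0.69 ± 0.115. The part of these arrays in the value was not tested otherwise.

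Lypla1, which encodes acyl-protein thioesterase 1, also lies on chromosome 1, but with 1105 measured genes between it and Kcnh1, at the other end. It read 8.34, 8.09, 8.31 and 8.25 in the knockouts and 8.42, 8.38, 8.14 and 8.12 in the wildtypes. The genotypes were interleaved, and the difference of -0.02 ± 0.094 (SE; 95% interval -0.23 to 0.19) was the smallest of the 10. Its sign turned in several fits, with 0.02 after a second quantile normalization, 0.03 without wildtype 1 and 0.06 with a block for mouse-number series.

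Lypla2, the gene of acyl-protein thioesterase 2 on chromosome 4, came nearest to a shift opposite to that of its relative. It read 8.74, 8.86, 8.86 and 8.60 in the knockouts and 9.12, 8.93, 8.77 and 8.88 in the wildtypes, a difference of -0.16 ± 0.094 (SE; unadjusted p = 0.117, limma adjusted p = 0.997). All 4 knockouts lay below the wildtype mean, but wildtype 3 fell among them. Without wildtype 1, the highest array, the difference was -0.09. The 95% interval from -0.37 to 0.05 leaves out -0.67, the sign-turned difference of Lyplal1, a gene chosen on that difference. It overlaps the sign-turned 95% interval of Lyplal1, -1.09 to -0.25, so this is no test. Of all probe sets, 12.5% had a larger absolute difference.

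Bpnt1, the cytosolic nucleotidase gene, split the knockouts. Knockouts 2, 3 and 4 read 9.74, 9.74 and 9.38, while knockout 1 read 10.48, level with wildtypes 2, 3 and 4 at 10.51, 10.50 and 10.46. Wildtype 1 read 9.92, lowest in its group and close to the lower knockouts. The difference was -0.51 ± 0.214 (SE) over all arrays, -0.84 within the higher series of mouse numbers and 0.17 within the lower, where knockout 1 is set against wildtypes 1 to 3. It was closer to 0 with a block for that series (-0.34 ± 0.229) and without knockout 4 (-0.36). It was -0.73 without knockout 1, -0.66 without wildtype 1 and -0.87 ± 0.104 without both, a fit added after the data were seen. Both arrays run against the difference in their groups, so leaving them out makes it larger and its error smaller by construction. Those 2 arrays are again the ones apart on the first component.

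Impad1, the Golgi nucleotidase gene on chromosome 4, read 9.79, 9.77, 9.46 and 9.36 in the knockouts and 9.71, 9.46, 9.54 and 9.37 in the wildtypes. The levels ran through the same range in both genotypes, and the difference was 0.07 ± 0.115 (SE; 95% interval -0.18 to 0.33). It was 0.01 without knockout 1 and 0.15 without knockout 4, and within the 2 series of mouse numbers it was 0.22 and 0.16. With a block for that series the difference was 0.19, the interval reached 0.45 and the sign-turned difference of Bpnt1, then 0.34, lay inside it. The same held without knockout 4, where the interval reached 0.40 and the sign-turned value was 0.36. 

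**Figure D3:**
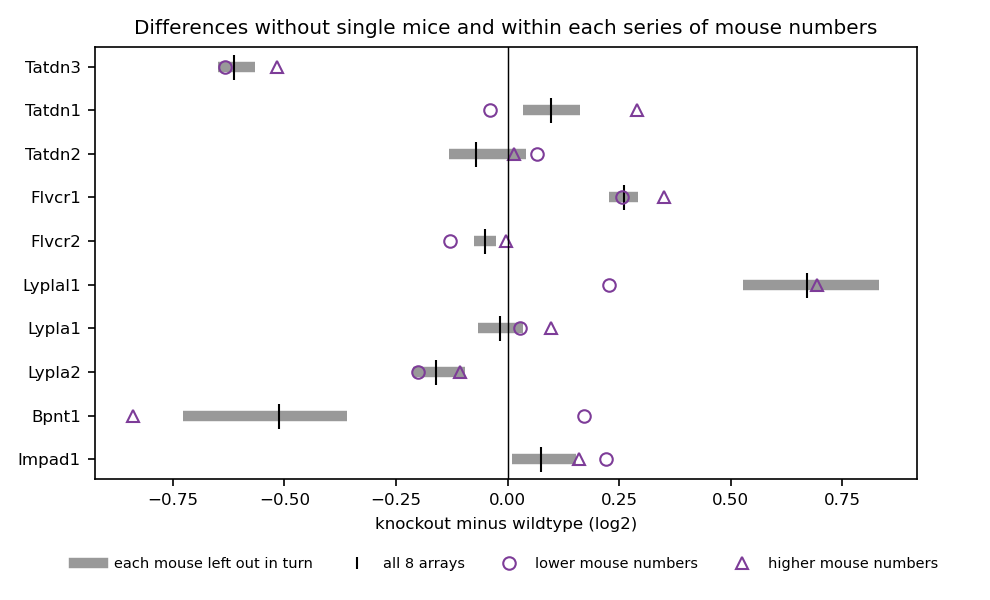
Knockout minus wildtype on the log2 scale for each gene with all 8 arrays (black tick), the range when each mouse is left out in turn (grey bar), and the values within the lower (circle) and higher (triangle) series of mouse numbers. Tatdn3 and Flvcr1 stay on their side throughout, as do Lyplal1 and the paralogues Flvcr2, Lypla2 and Impad1, whose intervals span 0. Bpnt1 is at -0.84 in the higher series and 0.17 in the lower.

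The 4 neighbours lie on the same side of Kcnh1 in the gene order of RefSeq assembly GRCm38.p6. Counting measured genes, 16 stand between Tatdn3 and Kcnh1, 18 for Flvcr1, 35 for Lyplal1 and 40 for Bpnt1. The measured differences of the genes beside them were uneven. Spata45, which lies between Flvcr1 and Tatdn3, read 6.27 ± 0.174 in knockouts and 6.24 ± 0.190 in wildtypes (SD, n = 4 each), a difference of 0.03. Nsl1, a kinetochore protein gene whose annotated span overlaps that of Tatdn3, differed by 0.04 ± 0.075 (SE), and Vash2, beyond Flvcr1, by 0.02. Spata45, Nsl1 and Vash2 all read below the level of the median probe set, 7.52. Whether they lay above background was not analysed here, so the lack of a difference in them may not show that their levels were unchanged. The sources used here give neither the build nor the probe positions behind the deposited values, so which of 2 overlapping genes a probe reads could not be checked.

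Around Bpnt1 both flanking genes, which encode tRNA synthetases, read on the lower side. Iars2, the mitochondrial isoleucyl-tRNA synthetase gene, was at 8.70, 8.43, 8.30 and 8.46 in the knockouts and 8.70, 8.79, 8.90 and 8.72 in the wildtypes. Knockout 1 stood above the other knockouts for Iars2, as it did for Bpnt1, but wildtype 1 did not stand apart from the other wildtypes as it did for Bpnt1. Eprs, the glutamyl-prolyl-tRNA synthetase gene, was 9.70 ± 0.043 in knockouts and 9.86 ± 0.134 in wildtypes (SD, n = 4 each). Its groups only just failed to overlap, with the highest knockout at 9.76 and the lowest wildtype at 9.77, and knockout 1 read 9.67 like knockout 2. Next to Lyplal1, the growth factor gene Tgfb2 read 0.25 ± 0.089 (SE) higher, and the predicted gene Gm9722 -0.19 ± 0.170. The Tgfb2 groups too only just failed to overlap, with the lowest knockout at 8.61 and the highest wildtype at 8.60. Of all probe sets, 2.16% had groups that did not overlap. These flanking genes were looked at because of their place beside chosen genes, so no test is given for them.

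Flanking genes of the paralogues gave 1 of 12 at an unadjusted p under 0.05 (8.33%, against 3.16% of all probe sets, a difference that rests on 1 gene) and 0 past the adjusted threshold. That gene was Pithd1, beside Lypla2, at -0.38 ± 0.171 (SE; unadjusted p = 0.0483, limma adjusted p = 0.997). Wildtype 1 read 8.93 there against 8.06 to 8.28 in the other wildtypes, and Fuca1, the fucosidase gene on the other side of Lypla2, read 8.48 in wildtype 1 against 7.53 to 7.93. Lypla2 and both genes beside it thus had their highest level in wildtype 1, an array that stands apart on the first component. That array was also the highest for Kcnh1, Tatdn3, Tatdn2, Flvcr2 and Lypla1, but not for Tatdn1, Flvcr1, Lyplal1, Bpnt1 and Impad1. Among the wildtypes alone it was also the highest for Flvcr1 (8.42) and Impad1 (9.71). Whether the shared peak has to do with the place of Lypla2 was not tested. Beside Tatdn1, the mitochondrial complex I gene Ndufb9 differed by 0.04 and the ubiquitin ligase gene Rnf139, whose span overlaps Tatdn1, by -0.02.

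**Figure D4:**
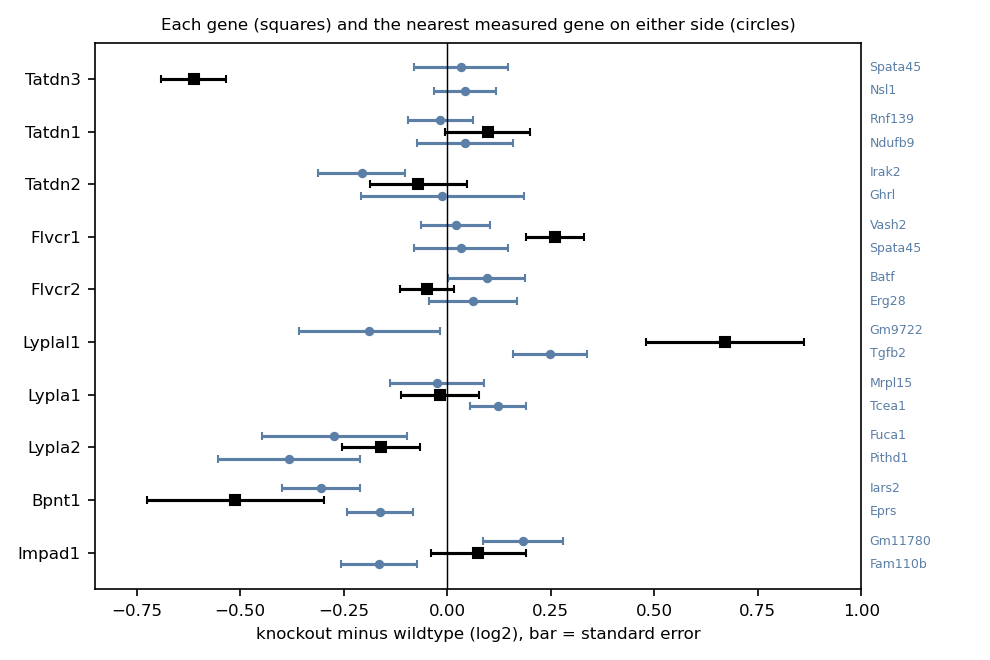
Knockout minus wildtype on the log2 scale with standard errors for each of the 10 genes (black squares) and the nearest measured gene on either side in the gene order (blue circles, named at the right). The genes beside Tatdn3 and Flvcr1 lie between 0.02 and 0.04, Tgfb2 lies on the same side of 0 as Lyplal1 and Gm9722 on the other, and Iars2 and Eprs lie on the same side as Bpnt1.

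The pattern over the arrays was compared as well, and no paralogue was among the 3 genes most like its relative. Likeness was measured as the mean absolute difference between 2 genes' log2 levels over the 8 arrays, each centred on its own mean, so that 0 is an identical pattern, and genotype differences are part of it. The neighbours were chosen on that genotype difference, so genes that share it tend to rank near them and genes without it further off. The ranks thus repeat that choice in part and are a description only. Ints7, an Integrator complex gene that also lies near Kcnh1, was closest to Tatdn3 at 0.0694, followed by the glucose transporter gene Slc2a1 (0.106) and Aagab (0.129). Ints7 read 8.61, 8.50, 8.31 and 8.31 in the knockouts and 9.11, 8.93, 8.87 and 8.81 in the wildtypes, so it too showed no overlap. Tatdn2 came 4211th and Tatdn1 16596th of 19920 named probe sets in likeness to Tatdn3.

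For Flvcr1 the closest were Gm5250 (0.0412), the fucosyltransferase gene Fut9 (0.0444) and Nol11 (0.0459), and Flvcr2 came 8091st. Gm5250 lies on chromosome 1 like Flvcr1, Fut9 on chromosome 4 and Nol11 on chromosome 11. Lyplal1 was closest to A630089N07Rik (0.136), Man1a (0.163), a mannosidase gene on the list of hippocampal neuron markers, and Gm3365 (0.174). In all 3 of those genes wildtype 1 was the lowest array, as in Lyplal1. The marker list that holds Man1a went both ways, with Man1a at 0.50, Dsp at -0.38 and a list median of -0.06. In likeness to Lyplal1, Lypla1 came 14417th and Lypla2 15782nd. Bpnt1 had no near match, with Set (0.190), Acsf2 (0.214) and Pfdn6 (0.226) first, and Impad1 came 13009th.

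Genes that work in the same pathways gave few low p-values. Their share was below that of all probe sets in the main fit and above it in some others. Over 7 lists chosen for the families, 136 of 143 listed genes were measured, none passed the adjusted threshold, and 2 were at an unadjusted p under 0.05 (1.47%), against 3.16% of all probe sets. Both were lower in knockouts, where 1.53% of all probe sets were at that unadjusted p and lower. The median difference of the 136 was -0.02 and that of all probe sets -0.0025.

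The 20 other genes of deoxyribonucleases and related proteins had a median of 0.00, with 10 higher and 10 lower and none at an unadjusted p under 0.05. Among them were Endog (-0.12) and Dffb (0.03), nucleases of cell death. Among 21 genes of heme synthesis, breakdown and transport, 14 lower and 7 higher with a median of -0.02, 1 was under that mark. This was Abcb10, a mitochondrial transporter needed for heme synthesis, at 7.90 ± 0.097 in knockouts and 8.21 ± 0.255 in wildtypes (SD, n = 4 each; unadjusted p = 0.0273, limma adjusted p = 0.997). The heme oxygenase genes Hmox1 (-0.08) and Hmox2 (-0.07) and the heme transporter gene Slc48a1 (-0.02) did not reach it. Among 20 genes of choline uptake and phosphatidylcholine synthesis, with a median of -0.02, Mfsd2a, the lysophosphatidylcholine transporter of brain endothelium, read -0.33 ± 0.138 (SE; unadjusted p = 0.0371, limma adjusted p = 0.997). The choline transporter gene Slc44a1 was at 0.01.

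The 10 other genes of depalmitoylating enzymes and related hydrolases had a median of -0.01 and a range from -0.27 for Abhd17a to 0.07. The 23 genes of palmitoyltransferases, which add the tag that the LYPLA enzymes remove, and of their partner Golga7 had a median of -0.0050 and ran from -0.18 to 0.17. In the sulfation list of 29 genes the median was -0.06, with 20 lower and 9 higher. Papss1 (-0.15) and Papss2 (0.08), which make the sulfate donor, and Slc35b2 (-0.11), which carries it into the Golgi, did not pass. The 13 genes of the lithium-sensitive phosphatase superfamily and inositol recycling had a median of 0.0050, with Inpp1 at -0.16 and Impa1 at 0.0050. No gene of these 4 lists was at an unadjusted p under 0.05.

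**Figure D5:**
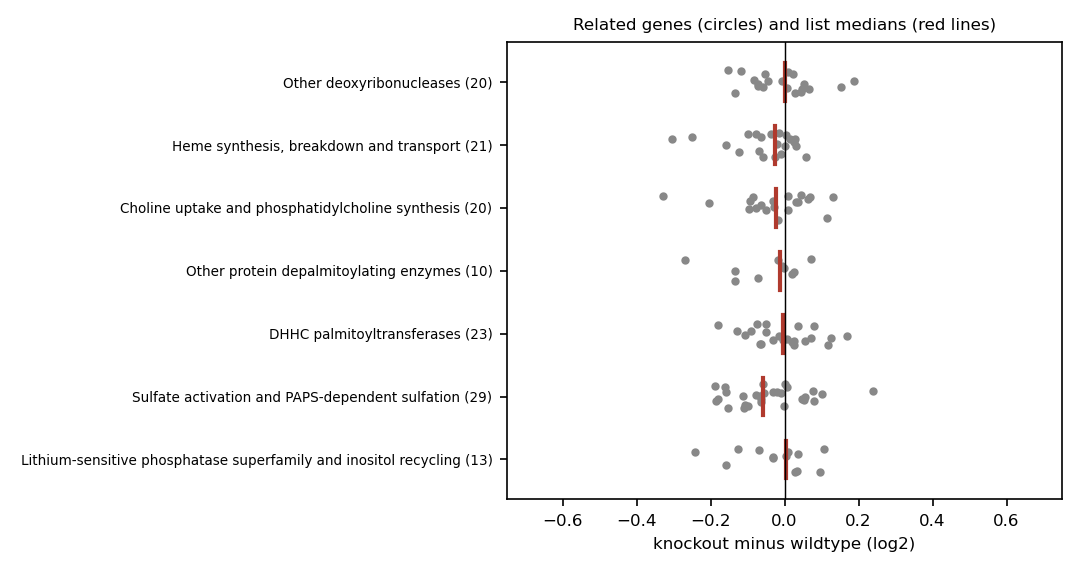
Knockout minus wildtype on the log2 scale for each measured gene of the 7 related lists (circles, spread vertically for sight only) with list medians as red lines and the number of genes in brackets. Every list centres near 0, with medians between -0.06 and 0.0050.

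In a bulk sample, fewer cells of a type and less RNA per cell cannot be told apart, which applies to each level above. With 4 mice per genotype the interval of a paralogue's difference was between 0.29 and 0.52 log2 units wide, so small shifts in either direction were not detectable.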

How the data were processed

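The authors deposited log2 expression levels to 2 decimals, with 1 value for a probe set on each array. Per the submitters' processing notes they used R 2.9, limma and RMA, which corrects background, equalises arrays by quantiles and summarises probes. The sources used here do not give settings, genome build or probe set definition. Detection calls were not analysed here, and the number of arrays limits the precision.

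Arrays were assigned to genotype by title, and replicate numbers follow record order. Knockout was compared with wildtype by limma 3.58.1 in R 4.3.3 (lmFit, eBayes, two-sided) over all 20985 probe sets, with Benjamini-Hochberg adjustment, a threshold of 0.05 and 95% intervals. The fit was tested on simulated data. Names came from the platform table and, by gene number, from the gene table of GRCm38.p6, which held 19808 probe sets. The members and lists were chosen with earlier results of these data known. Named beside the members were Kcnh1, the 3 genes most like each neighbour, list genes at an unadjusted p under 0.05 and flanking genes. Other list genes were named after their values were seen. The planned comparison of protein sequences was not run. Alternatives were other eBayes settings, array weights, repeated normalization, median centring, dim probe set filters, a block for mouse-number series, values within each series, an exact permutation test and each mouse left out. Leaving out both arrays apart on the first component was added after seeing the data.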

Additional observations from a re-analysis of the deposited data

Results flagged for a closer look

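Each gene's 4 values per genotype were checked for a single array far from the rest, in 22 groups from the 10 genes and Kcnh1. Bpnt1 in wildtype 1 was the 1 case found. It read 9.92 where the other wildtypes read 10.46 to 10.51, a gap of 0.915 of the group's whole range, above Dixon's 95% critical value for 4 samples. About 1 group in 20 passes this mark by chance, and 1 case in 22 groups is near that share. The groups come from the same arrays and are not independent, and wildtype 1 is an array that stands apart on the first component. The cause of the low value was not tested.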

How the results depend on the processing

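No paralogue passed the adjusted threshold in any of the 17 alternative fits, and the smallest limma adjusted p was 0.827, for Impad1. Of all probe sets only 1 or 2 passed it in each of these fits. The exact permutation test over 35 splits gave p from 0.143 (Lypla2) to 0.914 (Lypla1), where the smallest possible is 0.0286. Signs turned for Lypla1 after a second quantile normalization (0.0166), with a block for mouse-number series (0.0617), without both arrays apart on the first component (0.00333) and within the lower (0.0267) and higher (0.0967) series. They turned for Tatdn2 with the block (0.04) and within the lower (0.0667) and higher (0.0133) series, for Tatdn1 within the lower series (-0.04) and for Bpnt1 within the lower series (0.17). Without single mice Lypla1 ran from -0.0658 to 0.035 and Tatdn2 from -0.132 to 0.0417. Related genes at an unadjusted p under 0.05 numbered 9 with array weights (6.62%, against 6.01% of all probe sets in that fit), 1 after a second quantile normalization (0.735% against 3.71%), 5 with the block (3.68% against 5.72%), 5 without both arrays (3.68% against 3.55%) and 0 to 4 without single mice (0 to 2.94% against 2.21% to 3.93%), where the main count was 2, and none passed the adjusted threshold. That count was 4 without knockout 1, wildtype 3 or wildtype 4, 1 without knockout 4 and 0 without knockout 2. The causes were not tested. The dimmest 50% filter removed Flvcr2. Averaging probe sets changed nothing, as each gene has 1. No paired analysis was possible because each mouse has its own number and the replicate numbers follow record order.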
